A study of Mus musculus with 9 samples.

Results

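The comparison set one mouse mammary tumour cell line labelled as a knockout of Janus kinase 1 (JAK1), line 46295, against another, the knockout cells of line 45566B. Each line was represented by 1 library of RNA sequencing. The values were FPKM (fragment counts normalised to transcript length and to sequencing depth), and every difference is that of log2(FPKM + 1), 46295 minus 45566B knockout, so that a difference of 1 is close to a 2-fold change for well expressed genes and understates the change of low ones. Of the 24346 genes in the table, 9254 were compared: those with at least 5 FPKM in either library, leaving out symbols of short noncoding RNA genes (Mir, Snor, Scarna and Rnu). With 1 library a side there is no replicate error and no test, and every value below describes these 2 libraries, not a difference between lines.

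All 9 libraries of the series came from tumour-derived lines of FVB/N mice with MMTV-neu tumours, where the MMTV promoter directs expression of the rat neu oncogene (Erbb2) to the mammary gland. Besides 46295 (labelled Jak1 knockout, D6) and 45566B knockout (Cre), there were 45566B wild type (Wt), 33373 and 33377 (wild type only), and 45555 and 47298 (each Wt and Cre). The labels state puromycin for lines 45566B, 45555 and 47298 only, so the drug and the line cannot be told apart here. All were adherent cultures fed serum together with hydrocortisone, insulin and EGF. 46295 has no wild-type library of its own, and the labels do not say what D6 is, whether a line is 1 clone, or how the gene was lost in 46295.

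JAK1 is a kinase bound to the inner side of cytokine receptors. With a partner (TYK2 at type I interferon receptors, JAK2 at the interferon gamma receptor and at receptors that use gp130) it phosphorylates STAT proteins, which enter the nucleus. Some STAT complexes, with IRF9, then drive interferon-stimulated genes, and STAT3 drives acute-phase and survival genes. In the mammary gland, prolactin acts through JAK2 and STAT5 on milk genes, and gp130 cytokines act through STAT3 during regression after weaning.

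Jak1 RNA was 23 FPKM in 46295, 14.2 in 45566B knockout and 16.1 in 45566B wild type, and the 6 libraries of the other lines held 19.4 to 86.7. The libraries labelled knockout thus retained Jak1 RNA. The value covers the whole gene, and the removed exons are not named in the labels, so it does not check the deletion. Relative to 45566B knockout, the depth of 46295 was 0.630 and that of the other 7 libraries 0.702 to 1.51. Of 10 luminal epithelial markers, 9 reached 5 FPKM in both libraries, and their summed level was 3168 in 46295 and 3141 in 45566B knockout. Of 11 immune and 7 endothelial markers none reached 5 FPKM in either, while a longer list of 15 immune genes held 1 that did (Cd68, 106 against 6.57 FPKM). Of 11 fibroblast markers 1 did in 46295 (Postn, 13.8 against 1.69 FPKM). The summed level of the immune markers was 3.26 and 1.37 FPKM and that of the endothelial markers 0.50 and 0.289. In bulk RNA fewer cells with a transcript and less of it per cell cannot be told apart.

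In 46295, 923 genes (9.97% of those compared) were higher by 1 or more and 724 (7.82%) lower. These 2 shares are the background for every count of higher and lower list members below. By 3 or more, 91 genes (0.983%) were higher and 28 (0.303%) lower. The median difference was −0.00266 and the median size of a difference 0.448. The 2 libraries differed by under 0.5 in 5034 genes (54.4%). Near the boundary, 119 genes were higher by 1.0 to 1.1 and 148 by 0.9 to 1.0, and 161 and 218 genes were lower by the same amounts. Over 10838 genes with 5 FPKM or more in any of the 9 libraries, the median size of a difference was 0.422 between 46295 and 45566B knockout, the 10th smallest of 36 pairs. The nearest library to 46295 was 33373 wild type (0.379) and the farthest 45555 knockout (0.722). The 2 libraries of line 45566B lay closest of any pair (0.130).

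**Figure D1:**
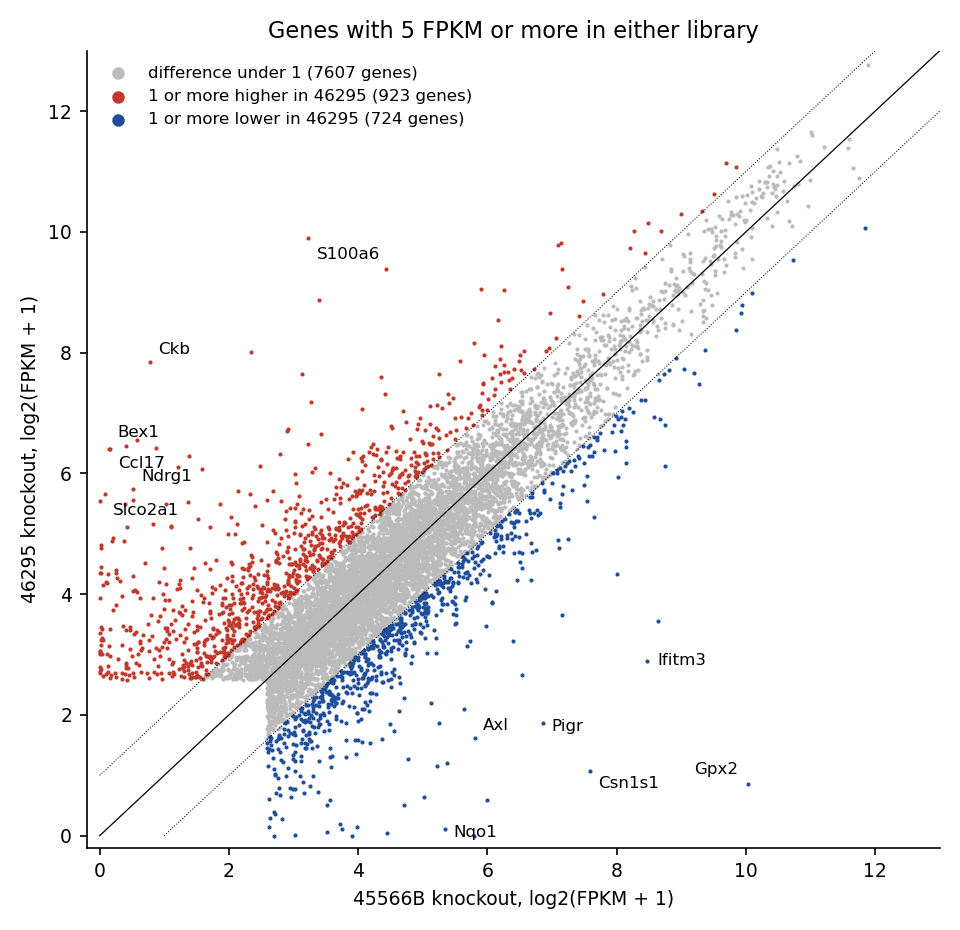
Level of each of the 9254 genes compared, as log2(FPKM + 1), in 45566B knockout (horizontal) and 46295 (vertical). The solid line marks equal levels and the dotted lines a difference of 1. The 923 red genes lie above the band and the 724 blue genes below it, with Ckb and S100a6 farthest up and Gpx2 farthest to the lower right.

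Most of these genes differed little between the knockout and the wild-type cells of 45566B. Of the 923 higher genes, 884 (95.8%) differed by under 1 between the knockout and wild-type libraries of 45566B, and so did 683 of the 724 lower genes (94.3%) and 98.0% of all genes compared. Of the 91 genes higher by 3 or more, 46295 held the highest level of all 9 libraries in 62, and both 45566B libraries lay below the other 7 in 34. Of the 28 lower ones, 46295 was lowest of the 9 in 9, and both 45566B libraries lay above the other 7 in 15. Some genes fell under both descriptions, and some under neither.

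What the 2 lines shared was led by structural and secreted genes of luminal cells. Krt7, a keratin of simple epithelium, was at 1596 FPKM in 46295 and 1349 in 45566B knockout, and Krt18 at 1193 and 854. The iron-binding milk protein gene Ltf was at 1279 and 1433, and the secreted protease inhibitor gene Wfdc2 at 1314 and 1067. These levels are among the highest of either library. Of 16 adherens junction and desmosome genes compared, none differed by 1, and 13 differed by under 0.5. Epcam, the epithelial adhesion molecule, was at 524 and 681 FPKM, and Cdh1, E-cadherin, at 168 and 135. The tight junction gene Cldn3 was at 368 and 335, and only Cldn8 (2.13) and Crb3 (1.16) of 18 tight junction genes passed 1. None of 29 respiratory chain genes passed 1 and 26 differed by under 0.5. None of 25 ribosomal protein genes passed 1 either, although their median difference was 0.37. Erbb2 was at 314 and 264 FPKM, a value in which reads of the rat transgene and of the mouse gene cannot be told apart. Vim, a filament protein of mesenchymal cells, was at 25.1 FPKM in 46295, 88.5 in 45566B knockout and 20.2 in 45566B wild type.

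The hormone receptor gene Esr1 was at 3.01 and 0.925 FPKM and Pgr at 0.90 and 0, under the level needed for a comparison. Trp53, the gene of p53, was at 74.3 and 112. Xist, the RNA of the inactive X chromosome, was at 23.1 and 25.4 FPKM in these lines and at 16.7 to 32.1 in the 6 libraries of the others. For Trp53 and Xist the 2 libraries differed by −0.58 and −0.13.

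The largest difference upward was that of Ckb, brain-type creatine kinase, which buffers cellular ATP (chr12:111669361-111672338). It was at 229 FPKM in 46295, 0.722 in 45566B knockout, 0.286 in 45566B wild type and 0.776 to 19.3 (median 3.25) in the 6 libraries of the other lines, a difference of 7.06. 46295 was above every other library. S100a6, a calcium-binding protein gene, differed almost as much (6.67) in another way. Its level was 955 FPKM in 46295, 8.36 in 45566B knockout, 11.3 in 45566B wild type and 1153 to 5982 (median 3828) elsewhere. Here both 45566B libraries were low, and 46295 was the lowest of the remaining 7.

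Genes in which 46295 stood above all other libraries included Bex1, Ccl17, Tnnt3, Mt3 and Lsp1. Bex1, an adaptor of neurotrophin signalling, was at 83.6 FPKM against 0.111 in 45566B knockout and at most 8.74 in the other lines. Ccl17, a chemokine that binds CCR4, was at 83.3 against 0.119 and at most 4.35. Tnnt3, fast skeletal troponin T, was at 86.9 against 0.325 and at most 1.06. Each of these 3 was at or under 5 FPKM in the other 8 libraries, except Bex1 in 33373 wild type. Mt3, a metallothionein that binds zinc and copper, was at 258 against 4.08 FPKM, and Lsp1, an actin-binding protein gene known from leukocytes, at 77 against 1.6. The pigment signalling gene agouti (symbol a) was at 45.6 FPKM in 46295 and listed at 0 in the other 8 libraries, and an exact 0 in a table without counts can be a failed estimate.

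For another set of genes both 45566B libraries were low and most other lines were not. Tmem37, a calcium channel subunit gene, was at 92.5 against 0.498 FPKM, with a median of 59.9 elsewhere. Slco2a1, the prostaglandin transporter, was at 49.3 against 0.0577, with 41.7 to 109 elsewhere. Fads3, a fatty acid desaturase family member, was at 46 against 0.432, with 37.3 to 117. For these last 2 genes the 7 libraries outside line 45566B did not overlap its 2 libraries. Fscn1, which bundles actin, was at 44.2 against 0.314 FPKM, and Nupr1, a stress-induced nuclear protein gene, at 667 against 20.6. The hypoxia-induced gene Ndrg1 was at 52.3 against 0.438. Gstt1, a glutathione transferase, was highest in 46295 (84.6 against 0.839 FPKM), and its 0.566 to 56.2 FPKM in the other lines spanned the 45566B values.

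The largest difference of all was downward, in Gpx2, the gastrointestinal glutathione peroxidase (chr12:76792333-76795554). It was at 0.812 FPKM in 46295, 1048 in 45566B knockout, 1318 in 45566B wild type and 0.121 to 373 (median 0.482) in the 6 libraries of the other lines, a difference of −9.18. Outside line 45566B, 33373 wild type held the highest value and every other library lay under 2 FPKM. Its pseudogene Gpx2-ps1 was at 0 and 54.7 FPKM, and reads could be shared between the copies. Nqo1, a quinone reductase that like Gpx2 is a known NRF2 target, was at 0.0866 FPKM in 46295, 39.7 in 45566B knockout, 16.5 in 45566B wild type and 3.2 to 205 (median 16.1) elsewhere. For Nqo1 it was 46295 that stood apart, below the other 8 libraries.

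Other genes among the lowest were Csn1s1, Pigr, Wif1, Ceacam10, Cd177 and Klk10. Csn1s1, an alpha casein of milk, was at 1.09 FPKM in 46295 against 190.5 in 45566B knockout, 907 in 45566B wild type and 0.0446 to 744 elsewhere. Pigr, which carries immunoglobulin A across epithelium, was at 2.66 against 116 and 462, with at most 3.38 elsewhere. Wif1, a secreted Wnt inhibitor, was at 0.516 against 62.6 and 146, with at most 0.873 elsewhere. Pigr and Wif1 were thus transcripts of line 45566B among the 9 libraries, while Csn1s1 was also high in 33373 wild type. Ceacam10 (0.553 against 31.5 FPKM) and Cd177 (1.3 against 40.4) were lower in the same way. The protease gene Klk10 was at 5.33 against 92.3, and at 265 in 33373 wild type.

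In the receptor kinase gene Axl 46295 was lowest of all, at 2.06 FPKM against 55 in 45566B knockout, 51.1 in 45566B wild type and 144 to 356 elsewhere. The gene of its ligand, Gas6, went the other way, at 17.1 FPKM in 46295, 0.077 in 45566B knockout, 0 in 45566B wild type and 56.7 to 359 elsewhere. Each line therefore had 1 member of this receptor and ligand pair at a low level, and the 6 libraries of the other lines had both at 56.7 FPKM or more. Layn, a hyaluronan receptor, was at 0.0369 against 20.8 FPKM and the connexin gene Gjc1 at 0.428 against 25.2. Arhgdib, an inhibitor of small GTPases, was at 10.8 against 400.0. Pcdhgb1 was at 14 FPKM in 45566B knockout and near 0 in 46295, but it shares exons with the rest of its protocadherin cluster, so its value is uncertain.

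**Figure D2:**
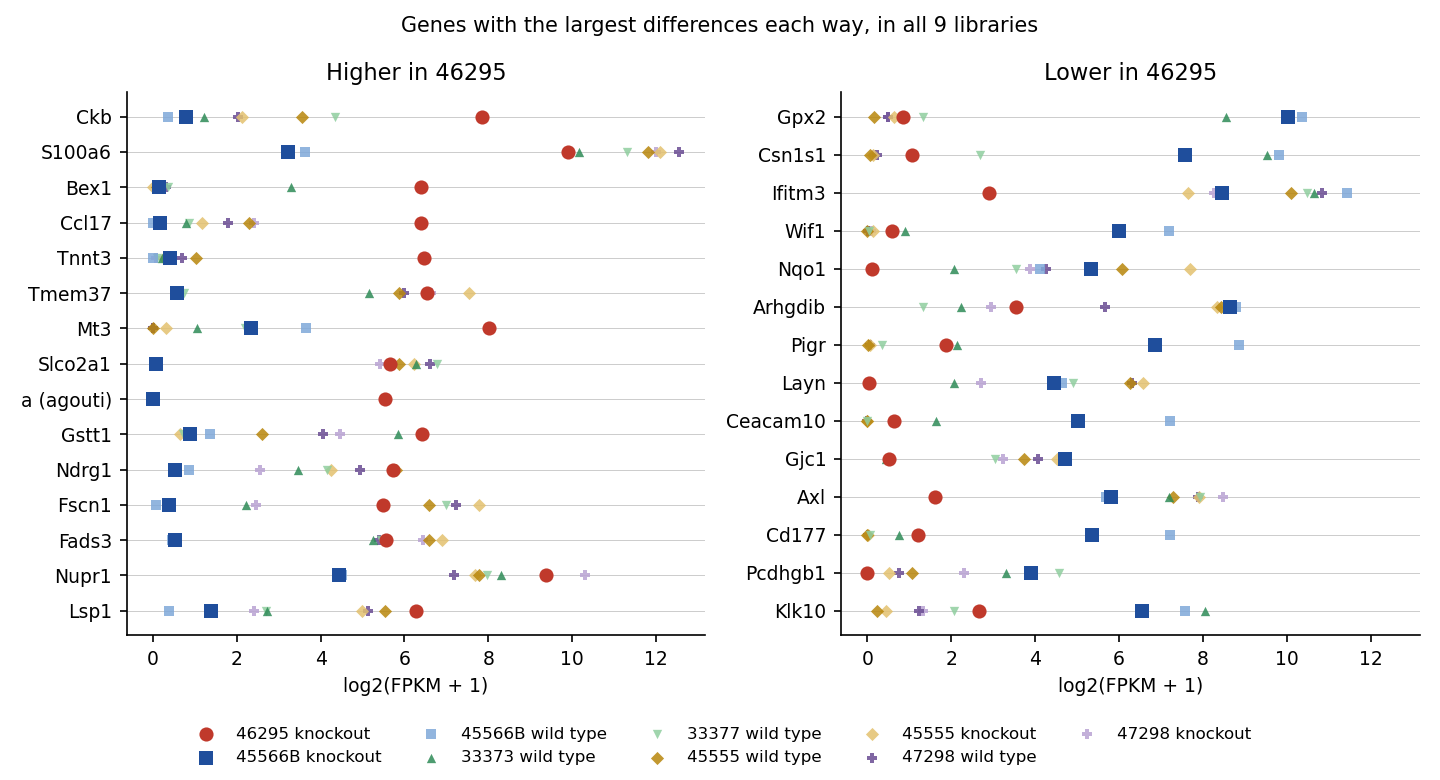
Level, as log2(FPKM + 1) on the horizontal axis, of the 15 genes with the largest difference in each direction, less 1 lower gene not reported here, with 1 point for each of the 9 libraries. The red circle (46295) stands alone to the right for Ckb, Bex1, Ccl17, Tnnt3 and Mt3 and alone to the left for Ifitm3, Nqo1 and Axl, and the blue squares (line 45566B) stand apart for S100a6, Slco2a1, Fads3, Pigr and Wif1.

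Genes that were on (5 FPKM or more) in one library and off (under 0.5 FPKM) in the other numbered 84 on in 46295 (0.908% of those compared) and 17 on in 45566B knockout (0.184%). Of the 84, 74 were also under 0.5 FPKM in 45566B wild type, and none reached 5 FPKM there. In the 6 libraries of the other 4 lines, 12 of the 84 were at 5 FPKM or more throughout. Beside Slco2a1, Fads3 and Gas6 these were Pbxip1, Mtap, Klhl9, Timp3, Mt2, Timp1, Nuak2, Emb and Wisp2. Timp1 and Timp3 encode inhibitors of matrix metalloproteinases. Timp3 was at 16.7 FPKM in 46295, 0.0411 and 0.0217 in the 45566B libraries and 14.3 to 229.6 elsewhere, and Timp1 at 14.6, 0.268 and 0, with 225 to 677 elsewhere. For Timp1, 46295 lay between line 45566B and the rest. Mt2, a metallothionein, was at 18.3 in 46295, 0.209 and 0.138 in 45566B and 223 to 2311 elsewhere, which places 46295 between the groups too. At the other end, 9 of the 84 were under 0.5 FPKM in all 6 libraries of the other lines.

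Of the 17 genes off in 46295, 13 were at 5 FPKM or more in 45566B wild type and 6 were under 0.5 FPKM in all 6 libraries of the other lines. Angptl4, an inhibitor of lipoprotein lipase, was the 1 gene on in all of those 6, at 6.21 to 81.5 FPKM, against 0.206 in 46295 and 6.09 in 45566B knockout. Pon3, a lactonase, was at 0.148 against 12.2, and Pax9, a developmental transcription factor gene, at 0.419 against 10.5. Angptl4 and Pon3 were low in 46295 against most lines, and Pax9 was high in line 45566B against all others. The values of Eif3j1, Klra4 and Ly6c2 are uncertain because near-identical copies can share their reads.

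Among the genes off in 45566B, Klhl9 and Mtap are neighbours on chromosome 4 (GRCm38), and the genes beside them were chosen after their values were seen. Klhl9, an adaptor of a ubiquitin ligase (chr4:88718292-88722465), was at 19.5 FPKM in 46295, 0.00917 and 0.00606 in the 45566B libraries and 9.69 to 27.7 elsewhere. Mtap, which salvages methionine and adenine (chr4:89137122-89181081), was at 20.8, 0.0156 and 0.0413 FPKM, with 20.3 to 86.5 elsewhere. Next to Mtap lie Cdkn2a and Cdkn2b, the genes of the cell cycle inhibitors p16, p19ARF and p15. Cdkn2a (chr4:89274471-89294653) was at 2.98 FPKM in 46295, listed at 0 in both 45566B libraries and both 45555 libraries, and at 16, 33.1, 33.3 and 0.93 in 33373, 33377, 47298 wild type and 47298 knockout. Cdkn2b (chr4:89306299-89311039) was listed at 0 in 46295 and in 45566B wild type, at 0.0309 in 45566B knockout, and at 22.5 to 121 FPKM in the 6 libraries of the other lines. So 46295 had Klhl9 and Mtap at levels like the other lines and little or no RNA of Cdkn2a and Cdkn2b, while line 45566B had almost none of all 4. On the Klhl9 side of this stretch, Focad was at 2.61 FPKM in 46295 and 2.53 in 45566B knockout, Mllt3 at 2.63 and 2.48, and Hacd4 at 17.7 and 3.14. In 45566B wild type these were at 1.94, 2.84 and 2.49. Between Hacd4 and Klhl9, the interferon beta gene Ifnb1 was at 0.722 FPKM in 46295 and 2.73 in 45566B knockout. It was at 2.06 in 45566B wild type and at most 0.348 elsewhere. On the other side, beyond Cdkn2b, Dmrta1 was at 3.0 FPKM in 46295, 0.00951 in 45566B knockout and 0 in 45566B wild type, and at most 0.772 elsewhere. DNA was not measured, and the part of the genome itself in these values was not tested.

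Of 17 cytokine receptor genes that signal with JAK1, 11 were compared and none differed by 1. Ifngr1 and Ifngr2, the interferon gamma receptor chains, were at 59.6 and 43.1 FPKM in 46295 and 65.1 and 64.7 in 45566B knockout. Il6st, which encodes gp130, was at 13.6 and 21.2, and Osmr, the oncostatin M receptor, at 7.39 and 3.72. In the 6 libraries of the other lines Il6st held 41.1 to 137 FPKM and Osmr 12.1 to 69.5. On these receptors 46295 and 45566B knockout thus lay below all 6. Those 6 include knockout as well as wild-type libraries, and 45566B wild type is not part of this comparison. It therefore does not set knockout apart from wild type. Of the kinases, Jak2 was at 26 FPKM in 46295 and 7.13 in 45566B knockout, a difference of 1.73, and Tyk2 at 11.2 and 4.72 (1.09). For Jak2 the other 7 libraries held 8.64 FPKM in 45566B wild type and 7.1 to 35.3 elsewhere, a range that contains 46295. Of the STATs, Stat5a, which acts on milk genes, was at 14.3 and 4.1 FPKM (1.59), and Stat3 at 59.7 and 45.7 (0.38). In all, 3 of the 8 JAK and STAT genes compared were higher by 1 or more in 46295 (against 9.97% of all genes) and none was lower, with a median of 0.74.

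Among the feedback inhibitors, Cish, a known STAT5 target, was at 18.7 FPKM in 46295 against 3.14 in 45566B knockout and 2.47 in 45566B wild type. In the 6 other libraries it was at 0.16 to 12.2, below 46295 in each. Socs2, another STAT5 target, was lower by under 1 (86.1 against 148). Of 24 listed STAT3 targets 20 were compared, and 9 were higher by 1 or more and 1 lower (against 9.97% and 7.82% of all genes), with a median of 0.92 against −0.00266 over all genes compared. Igfbp5, a growth factor binding protein that rises in the regressing mammary gland, was at 45.1 FPKM in 46295, 1.58 in 45566B knockout, 4.24 in 45566B wild type and at most 4.01 elsewhere. Maff, a small bZIP factor, was at 37.1 against 6.33, and Junb at 178 against 60.3. For these 3 genes 46295 held the highest level of the 9 libraries. This did not hold for Timp1, also among the 9 higher members. It was at 14.6 FPKM in 46295, 0.268 in 45566B knockout and 225 to 677 in the 6 libraries of the other lines. Cebpb (59.3 against 58.4) and Bcl2l1 (154 against 124) differed by under 0.5. Several of the members also respond to other factors, and the activity of STAT3 itself was not measured.

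Of 19 acute-phase genes 7 were compared and 4 were higher (against 9.97% of all genes), with none lower and a median of 1.20. Cp, ceruloplasmin, was at 1138 FPKM in 46295, 358 in 45566B knockout, 402 in 45566B wild type and 13.7 to 1635 elsewhere. Lbp, which binds lipopolysaccharide, was at 138 against 33.7 and 56.2. For both genes 46295 lay within the range of the other lines. With the filter at 1 FPKM, which admits low members, the median of the acute-phase list was 0.57.

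Both knockout libraries were low in many interferon-stimulated genes against 3 of the 5 wild-type libraries. The 3 were chosen with earlier results of these data known, and against all 5 the count of 68 genes below becomes 7. Among 10086 genes with 5 FPKM or more in any of 5 libraries (both knockouts and the wild types of 45566B, 33373 and 33377), both knockout libraries lay at least 1 below the lowest of the 3 wild types in 68 genes (0.674%) and at least 1 above the highest in 6 (0.0595%). Of the 68, 44 were on the interferon or MHC class I lists, which together held 77 of the 10086. Line 45566B stands on both sides of that count. In 45555 wild type 42 of the 68 genes, and in 47298 wild type 15, were no higher than in the higher of the 2 knockout libraries. The lowest against wild type was Iigp1, an interferon-induced GTPase, at 0.0854 FPKM in 46295, 0.471 in 45566B knockout and 23.4, 28.4 and 47 in the wild types 45566B, 33373 and 33377. Irf7, which amplifies interferon production, was at 6.07 and 7.16 FPKM against 386, 203 and 128. Zbp1, a sensor of nucleic acids, was at 3.96 and 4.02 against 89.4, 86.7 and 49. In these 3 genes the 2 knockout libraries lay within 0.5 of each other and far below these 3 wild types. In 45555 and 47298 wild type, Iigp1 was at 0.536 and 9.05 FPKM, Irf7 at 4.18 and 11.6 and Zbp1 at 0.589 and 1.93, so several of these values lay at or below the knockouts. Ifi27l2a, Ifi44 and Apol9a complete the 6 lowest, at 0.605, 3.22 and 0.643 FPKM in 46295 and 2.2, 1.65 and 1.56 in 45566B knockout. Irf9, a subunit of the factor that acts on such genes, was at 3.58 and 4.03 FPKM.

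Within the 68, 59 genes differed by under 1 between the knockout lines, 7 were lower in 46295 and 2 higher. The 7 were Ifitm3, Usp18, Oas1a, Rtp4, Ifit1, Cmpk2 and Oas1g. Usp18, a protease that removes ISG15 and restrains the interferon receptor, was at 0.559 FPKM in 46295, 6.79 in 45566B knockout and 209, 85.1 and 63.1 in the 3 wild types. Rtp4 was at 2.47, 9.43 and 113, 87.2 and 86.2 in the same order. Oas1a, which makes the activator of RNase L, was at 0.139, 3.23 and 77.4, 34.5 and 27.9, and reads could be shared with its copies such as Oas1g. On these genes 45566B knockout lay between 46295 and those 3 wild types. It lay above 45555 wild type, where Usp18 was at 0.769, Rtp4 at 2.64 and Oas1a at 0.0311 FPKM. Ifitm3, a membrane protein that blocks virus entry, was the extreme: 6.45 FPKM in 46295, 352 in 45566B knockout, 2774, 1611 and 1444 in the 3 wild types, and 1093, 201, 1849 and 308 in 45555 wild type, 45555 knockout, 47298 wild type and 47298 knockout. 46295 was far below all 3 other knockout libraries. Its neighbour in the same family, Ifitm2, was at 363 and 378 FPKM in the 2 knockouts, and near-identical members can share reads.

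Promoter windows from RefSeq (GRCm38.p6) were matched to 48 of the 68 genes. The 200 bases before the start are shown for 4 of them, because they set the 2 matched genes with the lowest difference between the knockouts (Ifitm3 and Oas1a) beside the 2 nearest to no difference (Trim21 and Trex1). No motif is marked, so no part is in capitals.
Ifitm3: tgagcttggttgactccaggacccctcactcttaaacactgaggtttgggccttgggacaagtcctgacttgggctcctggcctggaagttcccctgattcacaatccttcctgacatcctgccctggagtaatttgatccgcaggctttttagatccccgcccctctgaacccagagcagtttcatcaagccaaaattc
Oas1a: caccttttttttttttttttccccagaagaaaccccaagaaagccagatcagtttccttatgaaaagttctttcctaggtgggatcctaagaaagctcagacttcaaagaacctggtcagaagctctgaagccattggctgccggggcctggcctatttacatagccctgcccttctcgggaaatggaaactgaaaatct
Trim21: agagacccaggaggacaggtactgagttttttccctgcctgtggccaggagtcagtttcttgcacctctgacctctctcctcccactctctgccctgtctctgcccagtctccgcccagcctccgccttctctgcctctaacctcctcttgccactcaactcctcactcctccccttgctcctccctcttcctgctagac
Trex1: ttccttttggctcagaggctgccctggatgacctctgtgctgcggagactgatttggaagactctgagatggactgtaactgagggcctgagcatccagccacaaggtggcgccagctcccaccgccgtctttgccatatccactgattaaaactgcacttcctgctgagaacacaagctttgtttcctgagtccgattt
All 4 lie on the minus strand, Ifitm3 at chr7:141010745-141010944, Oas1a at chr5:120907526-120907725, Trim21 at chr7:102565483-102565682 and Trex1 at chr9:109059724-109059923. G and C made up 52.5%, 45%, 59% and 53% of the bases in that order. Trim21, an intracellular antibody receptor and ubiquitin ligase gene, was at 6.28 FPKM in 46295, 6.35 in 45566B knockout and 21.5, 27.8 and 19.7 in the 3 wild types. Trex1, an exonuclease that degrades cytosolic DNA, was at 3.09, 3.13 and 9.94, 16.4 and 15.1 in the same order. For both genes the knockouts were nearly equal and below every one of the 3 wild types.

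Of 24 listed genes of class I antigen presentation 20 were compared, and 4 were higher in 46295 and 1 lower (against 9.97% and 7.82% of all genes), with a median of 0.27. The 3 catalytic subunits of the immunoproteasome were among the 4: Psmb8 was at 31.4 FPKM in 46295 and 7.04 in 45566B knockout, Psmb9 at 13.5 and 3.24, and Psmb10 at 22.5 and 7.56. Against the wild types of 45566B, 33373 and 33377, at 92.9, 84.8 and 100.0 FPKM of Psmb8, both knockouts were low. Against 45555 and 47298 wild type, at 7.25 and 21.7 FPKM, 46295 was higher. Ube2l6, the conjugating enzyme for ISG15, was higher in 46295 too (13.4 against 5.88), as was Uba7, the activating enzyme for ISG15 (13.7 against 2.03, with 12.8 in 45566B wild type). Irf1, a factor that acts on Psmb9 and other class I genes, was at 44.6 FPKM in 46295, 12.2 in 45566B knockout and 20.7 in 45566B wild type. B2m, the invariant chain, was at 754 and 656 in the knockouts and 3632 in 45566B wild type, but at 660 and 995 in 45555 and 47298 wild type. H2-D1, a heavy chain with close copies, was at 519 and 430.2 in the knockouts. B2m and H2-D1 thus differed by under 0.5 while the proteasome subunits differed by 1.46 to 2.01. The other higher member was the heavy chain gene H2-M3 (7.84 against 2.41), and the lower one was Calr, a chaperone of heavy chains (444 against 980.1).

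The 6 genes higher in both knockouts than in the 3 wild types were Ulbp1, M1ap, Acsbg1, Fxyd6, Ccl5 and Dgkk. Ulbp1, a ligand of the killer cell receptor NKG2D, was at 15.9 FPKM in 46295, 11.5 in 45566B knockout and 4.31, 5.06 and 0.786 in the wild types. Fxyd6, a regulator of the sodium pump, was at 46.5, 11.4 and 4.27, 1.1 and 1.24. Fxyd6 and Dgkk, a diacylglycerol kinase gene, were also higher in 46295 than in 45566B knockout by over 1. With all 5 wild-type libraries as the reference, 7 genes were lower and 5 higher in both knockouts.

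All 24 mitotic genes were compared, 7 were lower by 1 or more (against 7.82% of all genes) and none higher, with a median of −0.74. Cdc20, an activator of the anaphase-promoting complex, was at 18.8 FPKM in 46295, 51.4 in 45566B knockout, 30.6 in 45566B wild type and 14 to 119 (median 33.6) elsewhere. Ccnb1, cyclin B1, was at 39.7, 99.9, 79.1 and 20.1 to 114, and the proliferation marker Mki67 at 29.3, 73.3, 73.5 and 12.2 to 60.1. In each, 46295 lay inside the range of the other lines. Top2a (161 and 163) and Cdk1 (78.4 and 93.4) were close in both. Of 22 DNA replication genes 2 were lower by 1 and none higher (median −0.42): Rrm2, a subunit of ribonucleotide reductase, at 60.3 against 259.9, and Ccne2, cyclin E2, at 1.16 against 5.48. Ccnd1, cyclin D1, was at 241 against 485, and Cdkn1a, the inhibitor p21, at 71.4 against 149.7. The labels do not say how dense or how fast the cultures were, and its part was not tested.

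Of 23 genes, p53 and its targets, 21 were compared, with 1 higher, 3 lower and a median of −0.41. The 1 higher, Pmaip1, encodes the death protein NOXA and was at 23.6 FPKM in 46295 against 4.12, the highest of the 9 libraries. Of 21 compared genes of the BCL2 family and caspases, 7 were higher and 1 lower (against 9.97% and 7.82% of all genes), with a median of 0.56. Bik, a BH3-only protein gene, was at 42.8 FPKM in 46295, 4.28 and 4.64 in the 45566B libraries and 0 to 4.05 elsewhere. Casp12 was at 27.8 against 3.62 and Bmf at 15.5 against 5.25. The survival gene Bcl2l1 differed by under 0.5.

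Of 17 genes of the unfolded protein response 15 were compared, 1 was higher and 3 were lower (median −0.53). Sel1l, of the degradation complex in the endoplasmic reticulum, was at 27.8 FPKM against 101, and the disulfide isomerase gene Pdia4 at 88.1 against 191. Trib3, induced by ATF4, was the 1 higher gene (15.1 against 3.57), while Atf4 itself was at 88.7 and 86.8. Atf4 and Trib3 were far higher in 45555 than in either line, at 518 and 109.5 FPKM in its wild type.

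Of 25 glycolysis and hypoxia genes 23 were compared, 6 were higher and 3 lower (against 9.97% and 7.82% of all genes), with a median of 0.52. The higher ones were led, after Ndrg1, by Aldoc, an aldolase (33.6 against 2.26 FPKM), Bnip3, which acts in mitophagy (16.3 against 2.35), and Pfkm, a phosphofructokinase (25.8 against 7.86). For Ndrg1 and Bnip3 the libraries of line 45566B held the lowest levels, and the 6 of the other lines held 4.9 to 55 and 21.6 to 155 FPKM. The abundant enzymes Gapdh (561 and 474) and Pkm (787 and 726) were alike.

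In glutathione metabolism and among NRF2 targets, 17 of 22 genes were compared, 2 were higher and 3 lower. Beside Gpx2 and Nqo1, the cystine transporter gene Slc7a11 was lower (0.705 against 7.12 FPKM). The abundant transferases Gsta4 (468 and 401) and Gsto1 (366 and 268) differed by under 0.5, and the list's median was 0.15, so the 3 low genes did not stand for the list. Of 15 fatty acid genes 2 were higher, with Fasn, fatty acid synthase, at 128 against 52.7, and 2 lower, Fads1 at 0.987 against 7.58 and Scd1, a desaturase, at 7.73 against 19.8. Fads1 and Scd1 were lower in both lines than in any of the 6 other libraries, whose lowest values were 30.9 and 60.4. Of 21 cholesterol synthesis genes, Insig1 alone passed 1 (140.2 against 36.3).

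Of 17 ErbB receptor and ligand genes 12 were compared, none was higher and 3 were lower (against 7.82% of all genes), all of them ligands. Areg, amphiregulin, a ligand of the epidermal growth factor receptor and of duct growth, was at 24.8 FPKM in 46295, 84.1 in 45566B knockout, 74.5 in 45566B wild type and 0.369 to 13.7 elsewhere. The neuregulins Nrg1 (1.54 against 6.92) and Nrg2 (2.62 against 10.7) bind ERBB3 and ERBB4. Of the other growth factor genes, 6 of 21 were higher and 1, Axl, lower. Pdgfa, a platelet-derived growth factor chain, was at 159 against 20.4, above every other library, and Fgfr2, a receptor of mammary epithelium, at 13.4 against 2.23. Among TGF-beta and BMP genes, Ctgf was at 884 FPKM in 46295, 136 in 45566B knockout and 122 to 500.1 elsewhere, while the activin antagonist gene Fst (2.01 against 14.5) and the BMP-induced inhibitor gene Id2 (29.1 against 150.2) were lower. Of 19 such genes compared, 3 were higher and 3 lower. Id2 lies on chromosome 12, and without genes of chromosomes 4, 12 and 14, 3 of 14 were higher and 1 lower.

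Of 25 matrix protease and inhibitor genes 17 were compared, 8 were higher and 2 lower (against 9.97% and 7.82% of all genes). Their median of 0.37 hides a wide spread, from −2.26 to 4.46, and without genes of chromosomes 4, 12 and 14 it was 1.93 over 15 genes. Mmp7, matrilysin of glandular epithelium, was at 43.8 FPKM in 46295, 1.04 and 1.7 in the 45566B libraries and 39.6 in 33373 wild type. Mmp13, collagenase 3, was at 9.93, 0.387, 0.61 and 9.2 in the same order, and both were under 6 FPKM in the other 5 libraries. 46295 and 33373 wild type thus had both proteases at like levels.

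The luminal transcription factor and receptor list had 18 of 28 members compared, with 4 higher and 1 lower. Elf5, the alveolar factor downstream of prolactin, was at 80.8 FPKM in 46295, 24.9 in 45566B knockout, 28.9 in 45566B wild type, 84 in 33373 wild type and under 0.5 in the other 5. Prom1, a surface marker of luminal progenitors, was at 19.3, 0.188, 0.11 and 32.6 in the same order, and Sox9, a progenitor factor, at 31.1, 5.54, 3.73 and 29.5. On these 3 genes 46295 resembled 33373 wild type more than 45566B. Mfge8, of the milk fat globule, was higher (1031 against 409.7), as were Muc20 (9.1 against 0.454) and Muc15 (31.6 against 8.74), against the lower Csn1s1 and Pigr. Clu, clusterin, was at 740.0 against 1695. Milk and mucin genes thus went in both directions: 3 of 10 milk genes were higher and 2 lower, and 2 of 9 mucin and secreted genes were higher and 2 lower.

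**Figure D3:**
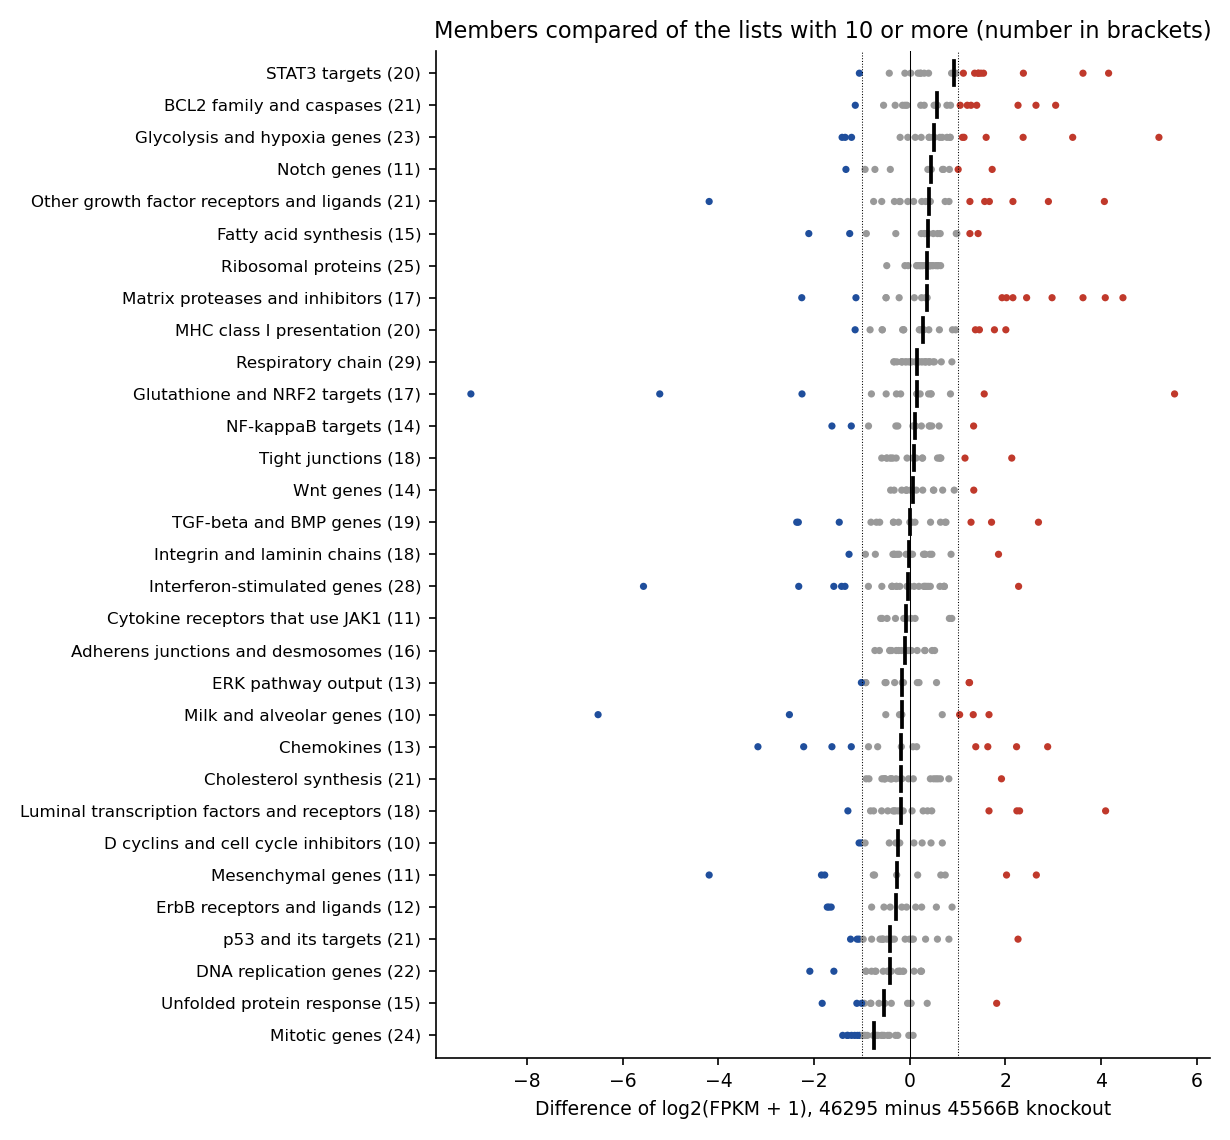
Difference between 46295 and 45566B knockout (horizontal, log2 scale) for each compared member of the lists with 10 or more such members, 1 point a gene. Black bars are list medians, red points are 1 or more higher and blue points 1 or more lower. STAT3 targets lie at the top, mitotic genes at the bottom, and respiratory chain, ribosomal and adherens junction genes lie inside the dotted lines.

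Genes lower in 46295 were gathered on a few chromosomes. Of 366 compared genes on chromosome 12, 153 were lower by 1 or more and 12 higher, the median difference was −0.88, and 12.6% lay above 0. On chromosome 14, 61 of 295 were lower and 13 higher (median −0.55). On chromosome 4, 64 of 515 were lower and 31 higher (median −0.10), and the first 50 compared genes, from Tmem68 to Rars2 (chr4:3549041-34660167), had a median of −0.99 with 25 lower and none higher. Over the other 17 chromosomes the medians ran from −0.14 (chromosome 5) to 0.28 (chromosome 17). Chromosomes 4, 12 and 14 held 12.7% of the genes compared, 38.4% of the lower genes and 6.07% of the higher ones.

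Set against the median of the 9 libraries, the 2 largest shifts came from different lines. On chromosome 12, over 304 genes with a median of 5 FPKM or more, 45566B knockout stood at 0.83 and 45566B wild type at 0.86, 46295 at 0, 33377 at 0.30 and 47298 knockout at −0.90. On chromosome 14, over 282 genes, 46295 stood at −0.74, 45566B wild type at −0.32, 45566B knockout at −0.07 and the other 6 libraries at 0.02 to 0.13. Chromosome 12 was thus high in line 45566B, in both of its libraries, and chromosome 14 was low in 46295. In the first stretch of chromosome 4, 46295 stood at −0.69, 33373 wild type at −0.57 and 47298 knockout at −0.57, with 45566B knockout at 0.17. Shifts of this kind were not limited to the 2 lines compared: 33377 minus 33373 had a median of 0.77 on chromosome 4. Chromosome number was not measured in these files, and its part was not tested.

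Of the 5 stretches of 50 neighbouring genes with the largest medians, 4 lay on chromosome 12 and 1 on chromosome 4. The genes with the largest differences in them were Fam150b (−3.38), Id2 (−2.33) and Bcap29 (−2.20), then Fbln5 (2.63), Serpina3h (−2.08) and Cep128 (−1.89), then Pax9 (−3.02), Fancm (−2.11) and Gemin2 (−2.03), then Asph (−2.57), Mdn1 (−2.0) and Ndufaf4 (−1.88) on chromosome 4, and Gpx2, Mthfd1 (−2.23) and Arg2 (1.99). Gpx2 exceeded the median of its stretch (−0.87) many times over and Pax9 its own (−1.04) by less, and Ckb, also on chromosome 12, was higher in 46295. Without chromosomes 4, 12 and 14, 867 genes were higher (10.7% of 8078) and 446 lower (5.52%). The mitotic list then had a median of −0.71 with 6 of 23 lower, and STAT3 targets a median of 0.92 with 8 of 18 higher. Few members of these 2 lists lie on those chromosomes, so leaving them out could change the medians little. For the DNA replication list neither of the 2 lower genes remained, since Rrm2 lies on chromosome 12 and Ccne2 on chromosome 4.

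**Figure D4:**
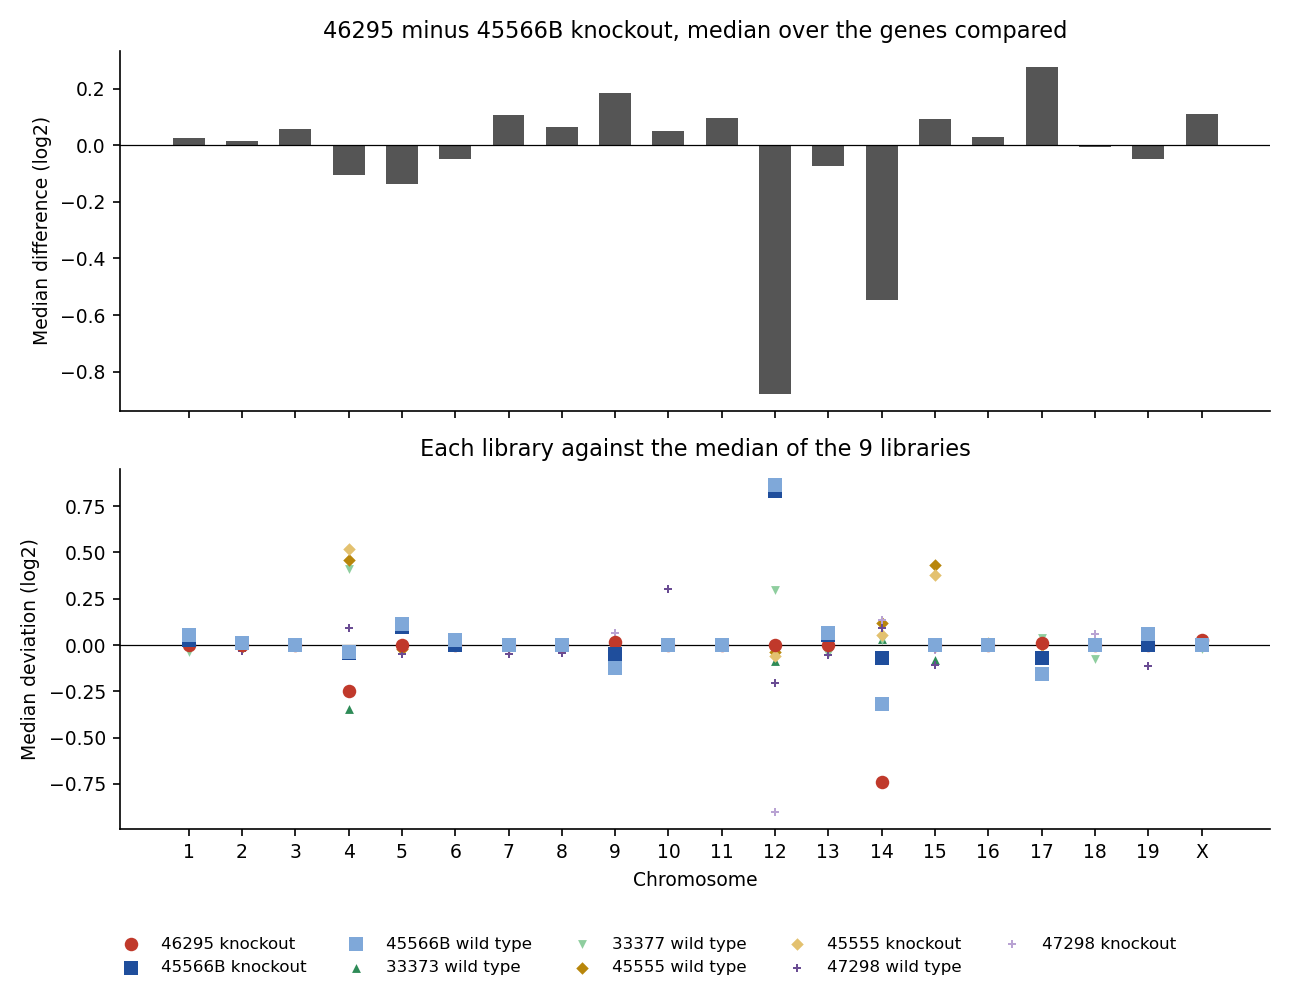
Top, the median difference between 46295 and 45566B knockout (log2 scale) over the compared genes of each chromosome. Bottom, each library's median deviation from the 9-library median of each gene. Chromosomes 12 (−0.88) and 14 (−0.55) stand out at the top, and at the bottom the blue squares of line 45566B are high on chromosome 12 and the red circle of 46295 is low on chromosome 14.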

How the data were processed

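The values are FPKM per gene symbol, deposited by the authors. Per the submitters' processing notes, cutadapt, TopHat2 2.1, Cufflinks 2.2 and Cuffnorm were used with build mm10, with no role or order stated. The annotation, the scaling and the strand setting were "not given in the sources used here", and reads of genes that overlap could not be separated. A smaller deposited table repeats 4 libraries with identical values and was not used. Of 24346 rows, 4 with repeated date-like symbols were dropped. The columns of 33373 and 33377 may be on another scale for short genes. Absolute depth is unknown; relative depth comes from the smallest steps of the FPKM.

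With Python 3.11.15 and pandas 2.3.3, differences of log2(FPKM + 1) were taken for genes with 5 FPKM or more in either library and called at 1. Only 1 library a side was present, so no test was run. The code for the calls was run on simulated data with known differences written in. That checks its arithmetic and not how reliable a call on these libraries is. Positions come from GENCODE vM21 (GRCm38) for 9195 of the 9254 genes compared. Named genes are the 15 largest differences each way, up to 4 differing and 2 close members of each list, a fixed set of 17 genes, the 6 lowest and highest shared genes and 3 genes in each of 5 stretches. Some genes beyond this rule, such as those off in 45566B, were chosen after their values were seen. The members and the 51 lists were chosen with earlier results of these data known. Other pseudocounts, filters, scalings, call sizes and reference libraries were tried. Leaving out chromosomes 4, 12 and 14 was added after seeing the data. Some genes that these rules name are not reported here.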

Additional observations from a re-analysis of the deposited data

How the results depend on the processing

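With 1 library a side, no replicate could be left out. Medians and gene differences were called moved when they changed by more than 0.135, the median size of a difference between the 2 libraries of 45566B over the genes compared. Counts were judged by their ratio to the main count instead. The counts of higher and lower genes were 279 and 90 when called at 2, 478 and 400 with at least 20 FPKM in either library, and 611 and 375 with a pseudocount of 5. Without chromosomes 4, 12 and 14, the lower count was 446. Genes off in 45566B knockout numbered 450 when on meant 1 FPKM and 17 when it meant 20 FPKM, and genes off in 46295 numbered 126 and 4. The chromosome 12 median was −0.67 with a pseudocount of 5. Genes lower in both knockouts numbered 7 against all 5 wild-type libraries, and genes higher in both 2 with at least 20 FPKM and 1 with a pseudocount of 5. Rescaling to the same sum moved the median of all genes to −0.08, with 810 higher and 863 lower. Of the named genes, 148 differed by 1 or more. Under the 6 settings run on them, 835 of 835 values kept their direction and 809 stayed at 1 or more. The direction could not have turned, since pseudocounts and filters cannot change a sign and the rescalings were small against 1. Filters also leave a gene's own value unchanged, so neither count measures how reliable a difference is. Of 285 values of list medians, 30 moved. Each list counts once for every setting under which it was run, so this is not a number of lists. Low FPKM are the least certain, since 1 fragment weighs most there and 46295 had 0.630 of the depth of 45566B knockout.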

Other observations

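Cd68, a lysosomal protein used as a macrophage marker, was at 106 FPKM in 46295, 6.57 in 45566B knockout, 8.84 in 45566B wild type and 0.426 to 17.7 in the 6 libraries of the other lines. The leukocyte gene Ptprc was at 0 and 0.0222 FPKM and the macrophage genes Csf1r and Adgre1 at 0.0318 and 0.0192 in 46295, all at or near 0.

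Chemokine genes went in both directions, with 4 of 13 compared higher in 46295 and 4 lower. Ccl28, which draws plasma cells to mucosa, was at 8.31 FPKM against 83 in 45566B knockout, and Cxcl10, an interferon-induced ligand of CXCR3, at 0.717 against 6.98. Cxcl14 (21.8 against 2.09) and Cxcl3, a neutrophil attractant (20.7 against 3.62), were higher. Of the interleukin-1 family, Il33 was at 4.42 against 13.7 and Il1f6 at 6.28 against 27.3. Among laminin chains, Lamb2 was higher (37.8 against 9.71) and Lamb1, which lies on chromosome 12, lower (64.5 against 157). Hes6 was the Notch list's largest difference, at 46.7 against 13.4 FPKM. Of 24 mesenchymal genes 11 were compared, 2 were higher and 3 lower. Sparc, a matrix protein, was among the lower ones (1.73 against 8.79 FPKM), with 300.2 to 2389 of Sparc in the other lines.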
